A study of Homo sapiens with 12 samples.

Results

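Small nucleolar RNA (snoRNA) host genes are transcription units that carry snoRNAs in their introns. The genes described here were taken by name, as every gene symbol made of SNHG and a number together with GAS5, ZFAS1, EPB41L4A-AS1, DANCR, CCDC26, MEG8, GNL3, TAF1D, NOP56 and RACK1. The rule matched 34 of the 57500 genes in the count table, of which 30 were annotated as non-coding and 4 as protein-coding. Of the 34, 31 passed the count filter of the test in each comparison. Total RNA, depleted of ribosomal RNA, was sequenced from 3 established human cell lines of cancer origin, as 12 libraries that make up 4 groups with 3 biological replicates in each. SW480 came from a primary colorectal tumour and SW620 from a metastatic site of the same patient, and both were untreated and grown in DMEM with serum and antibiotics. PEO4, a line from ovarian cancer, was kept in RPMI with the same additions, either as control or with recombinant human TGF-β, a cytokine, at 10 ng/mL for 6 days. The comparisons were SW620 over SW480 and PEO4 with TGF-β over PEO4 control. Since each group is 1 cell line, a difference between the SW lines belongs to these lines, and p-values measure the spread between cultures of a line.

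When a host gene is spliced, the excised introns are trimmed to the mature snoRNAs, which guide 2′-O-methylation (box C/D) or pseudouridylation (box H/ACA) of ribosomal and other RNAs. The spliced exons of many non-coding hosts have short or no open reading frames, are bound by ribosomes and are degraded by nonsense-mediated decay, so the amount of spliced host RNA and of snoRNA need not move together. Many hosts, like the genes of ribosomal proteins, begin transcription at a run of pyrimidines (a 5′ terminal oligopyrimidine, or TOP, start), which links them to growth signalling.

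The start sites are shown first because some snoRNA hosts share a pyrimidine start with ribosomal protein genes. RefSeq start windows (GRCh38.p14, from 250 bases before to 50 after the annotated start) were found for 28 member symbols, in 29 windows. A C at the annotated start followed by at least 4 pyrimidines was found in 8 of the 29 windows (27.6%), against 4.07% of all 35116 windows and 55.1% of 78 windows of ribosomal protein genes. The 8 were RACK1, SNHG4, SNHG5, SNHG12, SNHG18, SNHG19, TAF1D and ZFAS1. The motif CACGTG, the same on both strands, was in 6.90% of the member windows, those of GNL3 and SNHG7, and in 7.26% of all windows. For RACK1 and the members with such a start that were higher in SW620, the 20 bases before the annotated start and the first 30 bases from it are printed, with the pyrimidine run in capitals. They lie at chr5:181243877-181243926 (minus strand, RACK1), chr20:49278622-49278671 (plus, ZFAS1), chr11:93741466-93741515 (minus, TAF1D), chr1:28581844-28581893 (minus, SNHG12), chr16:2155329-2155378 (minus, SNHG19) and chr6:85678704-85678753 (minus, SNHG5).
RACK1: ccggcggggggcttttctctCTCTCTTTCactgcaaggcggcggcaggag
ZFAS1: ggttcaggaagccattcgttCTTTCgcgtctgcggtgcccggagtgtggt
TAF1D: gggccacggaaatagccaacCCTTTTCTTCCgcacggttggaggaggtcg
SNHG12: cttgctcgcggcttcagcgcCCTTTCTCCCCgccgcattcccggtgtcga
SNHG19: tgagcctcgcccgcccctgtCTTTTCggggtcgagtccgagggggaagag
SNHG5: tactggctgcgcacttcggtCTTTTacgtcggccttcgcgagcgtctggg
The runs were between 5 bases (ZFAS1 and SNHG5) and 11 bases long (SNHG12 and TAF1D) in these 6 genes. A match, or the lack of one, is a description of the annotated start and not a mapped transcription start in these cells.

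The snoRNAs whose values are compared with their hosts further on are shown next, from GENCODE 29 (GRCh38). In the box C/D snoRNAs the C and D boxes are in capitals, and in the box H/ACA snoRNA the ACA near the 3′ end is in capitals. SNORD104 lies in SNHG25 at chr17:64146083-64146152, SNORD12C and SNORD12B in ZFAS1 at chr20:49278940-49279028 and chr20:49280319-49280409, and SNORA73B in SNHG3 at chr1:28508559-28508762, all on the plus strand and clear of the host's annotated exons.
SNORD104: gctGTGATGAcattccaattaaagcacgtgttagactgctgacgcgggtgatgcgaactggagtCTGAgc
SNORD12C: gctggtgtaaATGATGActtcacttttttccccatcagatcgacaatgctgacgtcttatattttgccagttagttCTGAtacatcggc
SNORD12B: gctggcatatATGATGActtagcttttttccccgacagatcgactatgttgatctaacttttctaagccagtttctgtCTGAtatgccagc
SNORA73B: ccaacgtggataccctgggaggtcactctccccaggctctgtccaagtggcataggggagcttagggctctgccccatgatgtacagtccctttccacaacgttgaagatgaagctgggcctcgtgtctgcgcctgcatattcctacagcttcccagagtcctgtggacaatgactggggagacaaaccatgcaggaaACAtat

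The library totals ran from 14531420 to 22028956 counts. Levels are given as CPM, counts per 1e6 counts of the TMM-scaled library total. Where a gene has no count in a library, up to 3 counts remain possible by counting error. That is 0.136 to 0.206 counts per 1e6 counts of the library total before TMM scaling. The intestinal transcription factor gene CDX2 had mean levels of 18.7 CPM in SW480 and 18.1 in SW620 and at most 3 counts in a PEO4 library. PAX8, a marker of Müllerian epithelium, had 556 and 587 CPM in the PEO4 groups and 43.9 CPM in SW480, close to the level in SW620. Other markers checked were mixed. WT1 and MUC16 were also higher in PEO4, and VIL1 in the SW lines. The ovarian marker SOX17 went the other way, with 1.60 and 1.84 CPM in the PEO4 groups, 2.56 in SW480 and 2.99 in SW620. The colorectal marker CDX1 was low in SW480 (0.179 CPM) and SW620 (0.119 CPM). CDH17, another, had 0.541 CPM in SW480 and 3.26 in SW620. A single SW620 library stood apart, judged by 58 genes that were high in PEO4 and nearly absent in SW480. The choice of genes allowed at most 0.5% of the PEO4 level in SW480, where the library medians were 0.156 to 0.214%. The first and second SW620 libraries had medians of 0.176 and 0.0391% of the PEO4 level, and the third had 1.05%. The same share of the members' own PEO4 levels would be 48.7% of the level of SNHG18 in that library, 18.9% of SNHG14, 10.3% of SNHG28 and at most 1.83% of any other detected member.

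Of the 31 members tested, 15 were higher in SW620 than in SW480 and 2 were lower (edgeR's quasi-likelihood test, Benjamini-Hochberg adjusted p under 0.05 over all genes tested). Over all 20941 genes tested, 13.5% were higher and 17.0% lower, 30.5% in either direction. The median log2 fold change was 0.67 over the members, with 26 above 0 and 5 below, and 0.03 over all genes. The members' part of all counts was 0.267 to 0.280% in the SW480 libraries and 0.368 to 0.441% in the SW620 libraries, which did not overlap (two-sided exact permutation p = 0.1, the smallest that 3 against 3 libraries allow). Of the 15, 8 rose by 2-fold or more, namely SNHG6, NOP56, SNHG3, SNHG25, GAS5, EPB41L4A-AS1, ZFAS1 and SNHG1. Those 8 also passed in each of 13 alternative settings and with any 1 of the 6 libraries left out. The 13 settings include the fits without both libraries numbered 2 or both numbered 3, which were chosen after seeing the data. The count of higher members fell from 15 to 8 without the third SW480 library. Calls over all genes in such reduced fits are not given here. A drop particular to the members therefore cannot be told from a general one.

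The values of single libraries did not overlap between the lines for 15 members that were higher and 2 that were lower in SW620, and 42.7% of all genes tested were so separated in either direction. Of the 15 members called higher, 14 were separated and SNHG5 was not.

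**Figure D1:**
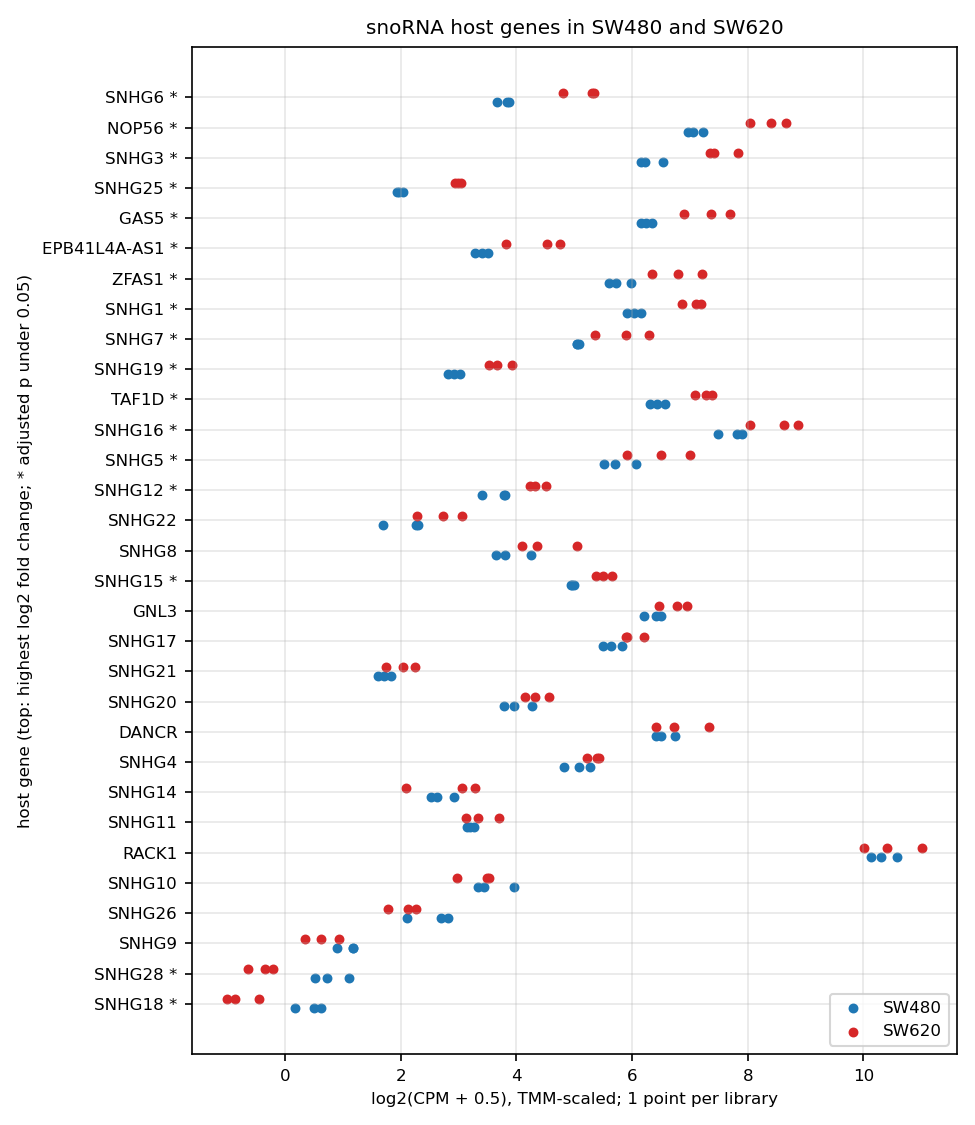
Levels of the 31 tested host genes as log2(CPM + 0.5), 1 point per library, in SW480 (blue) and SW620 (red), ordered from the highest fold change at the top. A star marks an adjusted p under 0.05; the SW620 points of SNHG6, NOP56 and SNHG3 lie to the right of all SW480 points, and those of SNHG28 and SNHG18 at the bottom lie to the left.

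Of the 4 protein-coding hosts, NOP56 and TAF1D rose. NOP56 (chr20:2652145-2658393, plus strand; positions are those of GENCODE 29, GRCh38), a core protein of box C/D snoRNPs whose introns also carry box C/D snoRNAs, had 149.9, 125 and 132 CPM in the 3 SW480 libraries and 338, 263 and 406 CPM in the 3 SW620 libraries. All SW620 values of NOP56 were above all SW480 values (log2 fold change 1.33 ± 0.19 SE, edgeR adjusted p 0.000854). TAF1D (chr11:93729948-93784391, minus), a subunit of the selectivity factor of RNA polymerase I, had 86.2, 94.3 and 79.0 CPM in SW480 and 167, 155 and 135 CPM in SW620. The TAF1D values were also separated (0.85 ± 0.17 on the log2 scale, edgeR adjusted p 0.00542), but the adjusted p was 0.051 without the third SW480 library.

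The other protein-coding hosts did not pass in this fit. GNL3 (chr3:52681156-52694492, plus), which encodes the nucleolar GTPase nucleostemin, had 84.6, 73.3 and 90.5 CPM in SW480 and 109.7, 88.1 and 124 CPM in SW620, with overlapping groups (log2 fold change 0.40 ± 0.17 SE, edgeR adjusted p 0.104). GNL3 passed in 6 of the 13 alternative settings, with an edgeR adjusted p down to 0.00528, and its adjusted p was 0.026 without the second SW620 library. RACK1 (chr5:181236909-181248096, minus), a protein of the small ribosomal subunit, had 1257, 1121 and 1537 CPM in SW480 and 1362, 1025 and 2071 CPM in SW620. Its groups overlapped and its log2 fold change was 0.21 ± 0.27 (SE, edgeR adjusted p 0.619), or -0.09 without the third SW620 library.

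Among the non-coding hosts the highest fold change was that of SNHG6, a short non-coding host of SNORD87, which had 12.1, 14.2 and 13.8 CPM in SW480 and 39.2, 27.5 and 40.1 CPM in SW620. The lowest SW620 value of SNHG6 was well above the highest SW480 value, and its log2 fold change was 1.44 ± 0.18 (SE, edgeR adjusted p 0.000400). SNHG3 (chr1:28505980-28510892, plus), the host of the SNORA73 pair, had 92.6, 74.3 and 71.1 CPM in SW480 and 226, 163 and 169 CPM in SW620 (log2 fold change 1.26 ± 0.20 SE, edgeR adjusted p 0.00125). SNHG1 (chr11:62851988-62855914, minus), which carries a cluster of box C/D snoRNAs, had 64.9, 70.5 and 60.0 CPM in SW480 and 146, 115 and 136 CPM in SW620 (1.05 ± 0.16 on the log2 scale, edgeR adjusted p 0.00123). In each of these genes the groups were separated and the SW620 libraries were spread more widely than the SW480 libraries.

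GAS5 (chr1:173863900-173868882, minus), known as a growth arrest-associated host RNA that accumulates when translation is blocked, had 75.3, 70.6 and 81.2 CPM in SW480 and 165, 118 and 208 CPM in SW620 (log2 fold change 1.13 ± 0.20 SE, edgeR adjusted p 0.00265). ZFAS1 (chr20:49278178-49295738, plus), the host of the SNORD12 family, had 48.0, 52.5 and 62.7 CPM in SW480 and 111, 80.8 and 147 CPM in SW620 (1.07 ± 0.22 on the log2 scale, edgeR adjusted p 0.00509). For both genes the second SW620 library was the lowest of its group and the third the highest, and even the lowest was above every SW480 library. EPB41L4A-AS1 (chr5:112160526-112164276, plus), a host RNA antisense to EPB41L4A, had 10.0, 9.26 and 10.8 CPM in SW480 and 22.5, 13.7 and 26.5 CPM in SW620 (1.07 ± 0.23 on the log2 scale, edgeR adjusted p 0.00718). SNHG25 (chr17:64145970-64146476, plus), the short host of SNORD104, had 3.33, 3.41 and 3.63 CPM in SW480 and 7.14, 7.48 and 7.75 CPM in SW620, the tightest replicates among these (1.14 ± 0.23 on the log2 scale, edgeR adjusted p 0.00499).

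The remaining called hosts rose by less than 2-fold, with log2 fold changes between 0.58 and 0.87. SNHG16 (chr17:76557766-76565348, plus) had 225, 179 and 237 CPM in SW480 and 396, 262 and 468 CPM in SW620 (0.84 ± 0.23 on the log2 scale, edgeR adjusted p 0.0211). SNHG7 had 32.6, 32.7 and 33.2 CPM in SW480 and 59.1, 40.6 and 77.6 CPM in SW620 (0.87 ± 0.21, edgeR adjusted p 0.0128). SNHG15 had 30.4, 30.7 and 31.3 CPM in SW480 and 44.5, 41.2 and 49.9 CPM in SW620 (0.58 ± 0.14, edgeR adjusted p 0.0126). The SW480 libraries lay close together in SNHG7 and SNHG15, and in all 3 genes every SW620 library was above them. SNHG19 and SNHG12 had log2 fold changes of 0.86 ± 0.20 and 0.73 ± 0.19 (SE, edgeR adjusted p 0.0100 and 0.0169). SNHG5, the host of the SNORD50 pair, had 51.4, 45.1 and 66.5 CPM in SW480 and 89.9, 59.5 and 128 CPM in SW620, and the lowest SW620 library fell inside the SW480 range (0.79 ± 0.26, edgeR adjusted p 0.0463).

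These smaller changes depended on single libraries and on the setting. SNHG5 passed in 9 of 13 settings, SNHG15 in 11, and SNHG7, SNHG12, SNHG16 and SNHG19 in 12. The SNHG5 call was kept in 1 of the 6 fits that left a library out, the one without the second SW620 library, and that of SNHG16 in 2 of 6, those without the second or the third SW620 library. SNHG7 lost its call without the first or the third SW480 or the first SW620 library, SNHG15 without the first or the third SW480 library, SNHG12 without the third SW480 or the first SW620 library, and SNHG19 without the third SW480 library. The sign of the fold change did not turn for any of the 15 members in any setting run.

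**Figure D2:**
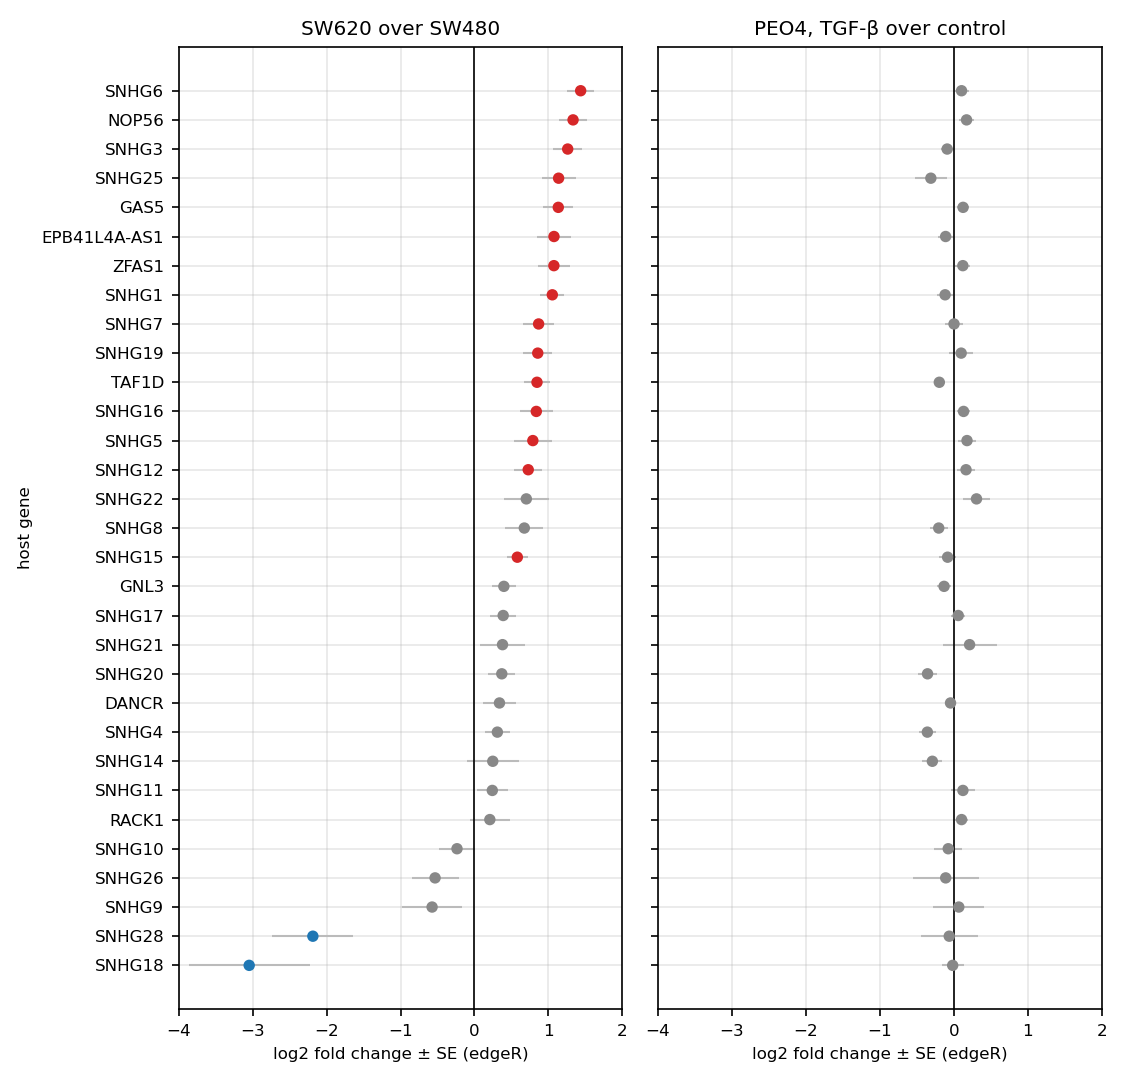
Log2 fold changes (points, with SE as bars) of the 31 tested host genes in SW620 over SW480 (left) and in PEO4 with TGF-β over control (right), on the same axis; red and blue mark an adjusted p under 0.05. On the left 15 genes are red and 2 blue, and on the right all points are grey and lie between -0.36 and 0.31.

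The 2 members that fell were expressed at low levels and passed the count filter through their SW480 counts. Neither was tested when every library had to hold at least 10 counts. SNHG28 had 1.16, 1.65 and 0.933 CPM in SW480, or 18 to 29 counts, and 0.289, 0.361 and 0.142 CPM in SW620, or 3 to 7 counts (log2 fold change -2.19 ± 0.55 SE, edgeR adjusted p 0.0152). SNHG18 had 0.908, 0.625 and 1.04 CPM in SW480, or 11 to 20 counts, and 0.0482, 0 and 0.236 CPM in SW620, or 1, 0 and 5 counts (-3.05 ± 0.82 on the log2 scale, edgeR adjusted p 0.0202). The 5 counts were in the third SW620 library, the one described above as standing apart, and without it the log2 fold change of SNHG18 was -4.75. Neither call held without the first SW480 or the first SW620 library, nor did that of SNHG28 without the second SW480 or that of SNHG18 without the third SW480 library.

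Of the 14 tested members that were not called, 11 had a log2 fold change above 0 and 3 below. SNHG17, the host of the SNORA71 copies, had 49.0, 56.5 and 44.8 CPM in SW480 and 59.3, 73.4 and 59.7 CPM in SW620, which did not overlap, and an edgeR adjusted p of 0.138. DANCR, whose RNA is known as an inhibitor of differentiation, had 89.8, 84.9 and 106 CPM in SW480 and 106, 84.8 and 160.1 CPM in SW620, with overlapping groups (log2 fold change 0.34 ± 0.22 SE, edgeR adjusted p 0.297). The members below 0 were SNHG10, SNHG26 and SNHG9, with log2 fold changes of -0.24, -0.53 and -0.57. SNHG27 had no count in any library, CCDC26 had 2 counts in 1 PEO4 control library, and MEG8, from the imprinted DLK1 region, had 1 and 2 counts in SW620 libraries, so these 3 were not tested.

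Other measures differed between the same libraries. Genes of ribosomal proteins took 2.49 to 3.32% of counts in SW480 and 3.57 to 5.53% in SW620. Within each SW line the summed CPM of the members was lowest in the second library (2264 and 2761) and highest in the third (2778 and 4590.5), so the sums overlapped between the lines. The second libraries also had the highest share of mitochondrial counts, 14.3% in SW480 and 12.8% in SW620. With both libraries numbered 2 left out 16 members were higher and 2 lower, and with both numbered 3 left out 9 were higher and 2 lower. The calls over all genes in these smaller fits are not given here. The part of these library differences in the result was not tested further.

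In the authors' deposited table of the SW comparison, 30 of the 34 members were listed, 15 as higher and 1 as lower at an adjusted p under 0.05. All 16 were also called here, in the same direction, and SNHG18, lower here, was not one of the 30. The authors' deposited table for PEO4 listed 31 members and called none. The share of all genes called in these deposited tables is not given here.

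No member of the host genes passed the threshold with TGF-β in PEO4 in the edgeR fit described here. Of 31 members tested, 0 were higher and 0 lower (edgeR), where 1.27% of all 19064 genes tested were higher and 0.991% lower, 2.26% in either direction. At an unadjusted p under 0.05 there were 3, beside 3175 of all genes tested. DESeq2 and limma-voom also called 0. With the replicate number added to the model, alone or with a GC correction, SNHG4 and SNHG20 were called lower. The members' log2 fold changes ran from -0.36 to 0.31 with a median of -0.01, beside -0.02 for all genes, and 15 were above 0 and 16 below. The members took 0.299 to 0.331% of counts in control and 0.310 to 0.336% with TGF-β (two-sided exact permutation p = 0.4).

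The largest differences with TGF-β were small and none passed the threshold in the fit without the replicate number. SNHG4, which shares exon bases with MATR3, had 29.9, 30.6 and 32.0 CPM in control and 21.0, 26.1 and 27.7 CPM with TGF-β, which did not overlap (log2 fold change -0.36 ± 0.12 SE, edgeR adjusted p 0.172). SNHG20 had 25.0, 31.3 and 28.8 CPM in control and 19.9, 25.7 and 23.6 CPM with TGF-β, which overlapped (-0.35 ± 0.13 on the log2 scale, edgeR adjusted p 0.229). SNHG25 had a log2 fold change of -0.31 ± 0.22 (SE, edgeR adjusted p 0.531), and SNHG22 had the highest among those above 0, at 0.31 ± 0.19 (SE, edgeR adjusted p 0.460). The groups were separated in 3 members, all lower with TGF-β (SNHG4, TAF1D and SNHG14), against 19.9% of all genes tested in either direction.

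For hosts that rose in SW620, the PEO4 values were as follows. NOP56 had 85.1, 76.5 and 99.9 CPM in control and 90.3, 106 and 108 CPM with TGF-β (0.17 ± 0.11 on the log2 scale, edgeR adjusted p 0.459). GAS5 had 157, 140.2 and 161 CPM in control and 172, 188 and 158 CPM with TGF-β (0.13 ± 0.08, edgeR adjusted p 0.475). SNHG6 and SNHG3 had log2 fold changes of 0.11 ± 0.10 and -0.09 ± 0.09 (SE, edgeR adjusted p 0.656 and 0.665). In these 4 genes the treated and control libraries overlapped. Whether the effect of line and that of TGF-β differ was not tested, since they come from different lines and media.

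The replicate spread differed between groups. The coefficient of variation of a member, in CPM, had a median of 13.8% in SW480, 21.3% in SW620, 11.3% in PEO4 control and 9.79% with TGF-β over the 31 members. The common biological coefficient of variation over all genes was 0.274 for the SW fit and 0.152 for the PEO4 fit.

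Compared per length, as CPM per kilobase of annotated exon, the highest member over the 12 libraries was RACK1, with a mean of 227. SNHG16 followed with 104, ZFAS1 with 61.6, DANCR with 41.3, GAS5 with 38.9 and SNHG19 with 36.5. DANCR, GAS5 and SNHG19 were neighbours in that order whose values overlapped in the SW620 libraries. With the longest transcript as length, 5 of these 6 stayed among the 6 highest and SNHG5 took the place of SNHG19.

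The order differed between the lines. SNHG16 had per-length levels of 39.9 ± 5.74 in SW480, 70.0 ± 19.5 in SW620, 143 ± 11.7 in PEO4 control and 162 ± 15.2 with TGF-β (CPM per kb, SD, n = 3). NOP56 had 25.1 ± 2.41, 62.2 ± 13.3, 16.2 ± 2.20 and 18.8 ± 1.82 in the same order. In PEO4 all 6 libraries were above all 6 SW libraries for SNHG6, SNHG14, SNHG16, SNHG18 and ZFAS1, and below them for SNHG3, GNL3, SNHG15, SNHG10, SNHG21 and NOP56. The share of all genes separated between PEO4 and the SW lines is not given here. These lists are therefore not read as a trait of the host genes. The lines grew in different media, so line and medium cannot be told apart and these levels were not tested.

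**Figure D3:**
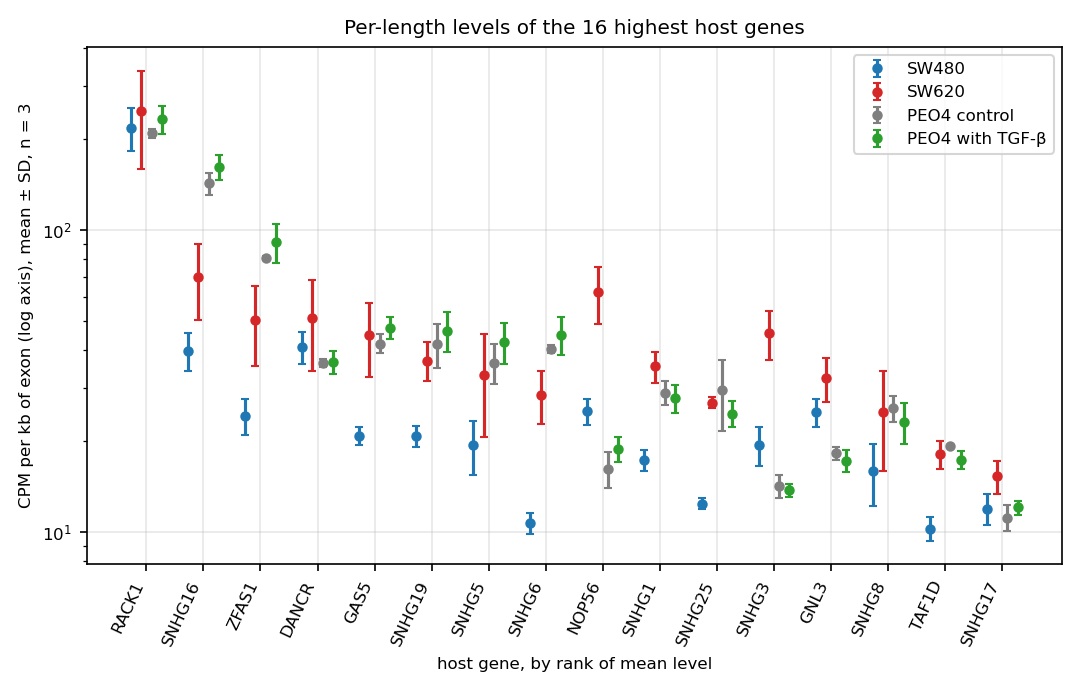
Per-length levels (CPM per kb of exon, log axis) of the 16 host genes with the highest means, as mean and SD of 3 libraries for each SW line, for PEO4 control and for TGF-β-treated PEO4. SNHG16 and ZFAS1 are highest in both PEO4 groups, NOP56 and SNHG3 are highest in SW620, and the PEO4 groups lie close together for most genes.

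SNHG14 showed one of the widest gaps between the lines. It is the long host transcript of the imprinted Prader-Willi region on chromosome 15, which carries the SNORD116 and SNORD115 clusters. Its levels were 67.6, 86.7 and 66.7 CPM in PEO4 control and 66.1, 57.6 and 63.9 CPM with TGF-β, beside 5.25, 7.10 and 5.65 CPM in SW480 and 9.21, 7.84 and 3.78 CPM in SW620. Summed over 30 annotated SNORD116 copies, the PEO4 libraries had 96 to 127 counts each and the SW libraries 1 to 4. The 48 SNORD115 copies summed to 0 to 2 counts in a library of any group. Copies within a cluster are near-identical, and how such reads were counted is not given in the sources used here.

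The snoRNAs themselves could be followed in few hosts. In GENCODE 29, 204 snoRNA genes lay within 31 of the members on the same strand, 84 of them in SNHG14, 46 in MEG8 and 74 in the others. No annotated snoRNA gene was matched within GAS5, SNHG27 or CCDC26, so none is analysed for them here. Of the 74, 48 overlapped an annotated host exon and 45 of these were listed at 0 in all 12 libraries, while 24 of the 26 clear of host exons had counts. Over all snoRNA genes of the table, 141 of 146 that lay wholly within an exon of another gene on the same strand were at 0, as were 6 of 6 within an exon on the opposite strand only, beside 332 of 793 (41.9%) that touched no exon. A 0 for a snoRNA inside an exon is therefore not read as absence here. The NOP56, TAF1D and SNHG1 snoRNAs were nearly all of this kind.

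Of 15 snoRNAs inside members that passed the filter in the SW comparison, 1 was higher in SW620 (6.67%) and 0 were lower. Over all genes tested, 13.5% were higher and 17.0% lower. The median log2 fold change of these snoRNAs was 0.47 with 13 above 0. The snoRNA that rose was SNORD104, whose sequence is shown above and whose host SNHG25 rose as well. It had 2.62, 3.86 and 4.04 CPM in SW480 and 7.18, 7.07 and 8.36 CPM in SW620, which did not overlap (log2 fold change 1.13 ± 0.26 SE, edgeR adjusted p 0.0104). SNHG25 and SNORD104 thus had log2 fold changes of 1.14 and 1.13. Reads of SNHG25 and of SNORD104, which together span few bases, cannot be fully told apart in counts per gene.

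Other snoRNAs did not pass the threshold, whether or not their host did. SNORA73B, a box H/ACA-type RNA in SNHG3 and the most counted snoRNA inside the members, had 59.6, 104 and 115 CPM in SW480 and 101, 124 and 176 CPM in SW620, with overlapping groups (0.55 ± 0.28 on the log2 scale, edgeR adjusted p 0.182) while SNHG3 itself had 1.26. In ZFAS1 SNORD12C and SNORD12B had log2 fold changes of 0.74 ± 0.44 and 0.17 ± 0.40 (SE), beside 1.07 for the host. SNORD60 in SNHG19 had 1.02 ± 0.44 (edgeR adjusted p 0.114) and SNORA13 in EPB41L4A-AS1 had -0.87 ± 0.76 at under 1 CPM. The difference between a host and its snoRNA was not tested. In PEO4, 17 snoRNAs inside members were tested and 0 passed in either direction (edgeR), with 2 at an unadjusted p under 0.05. Over all 19064 genes tested there, 2.26% passed and 3175 had an unadjusted p under 0.05.

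**Figure D4:**
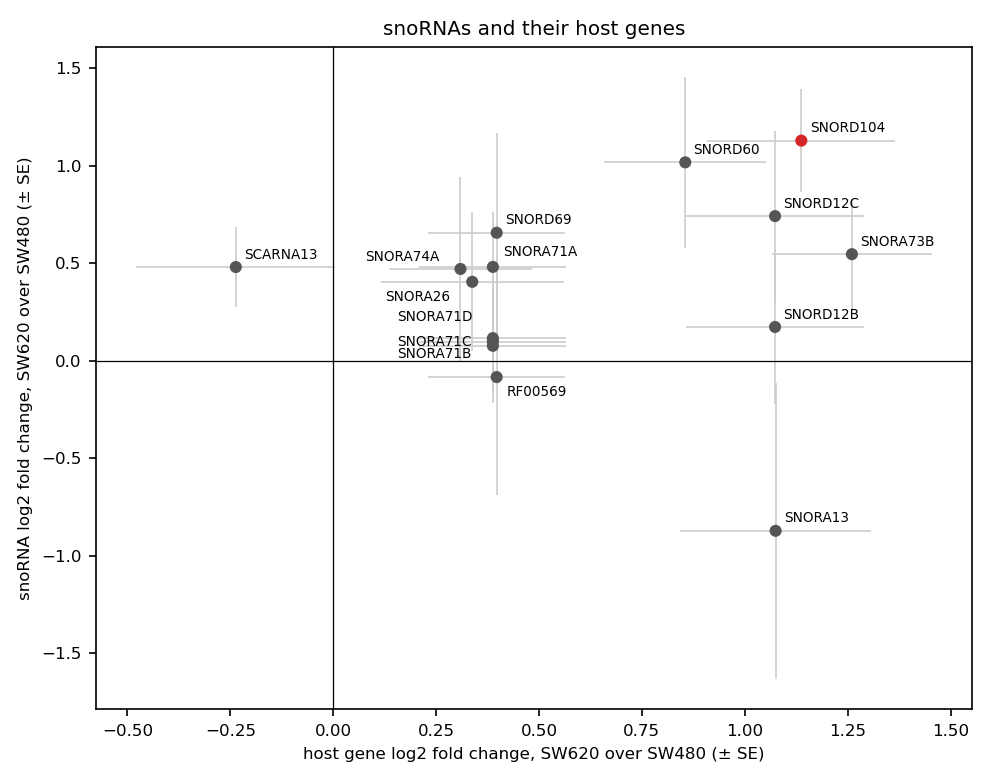
Log2 fold change in SW620 over SW480 of the 15 tested snoRNAs (vertical axis) against that of the host gene they lie in (horizontal axis), with SE as bars; red marks the 1 snoRNA with an adjusted p under 0.05. SNORD104 lies at 1.13 on a host at 1.14, and 12 of the other points lie above 0. The SE bars are of unequal width, and not all of them overlap.

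Genes of proteins that bind snoRNAs or assemble snoRNPs are given beside all genes tested, of which 13.5% were higher and 17.0% lower in SW620. Among core proteins 12.5% were called higher, and among assembly factors 30.8%. Of the 8 core proteins, NOP56 alone passed, 6 were above 0 and the median log2 fold change was 0.40, beside 0.03 for all genes. At an unadjusted p under 0.05 there were 3, beside 8524 of all 20941 genes tested. NOP58, the partner of NOP56 in box C/D snoRNPs, had 0.21 ± 0.14 on the log2 scale (edgeR adjusted p 0.305). The methyltransferase FBL had 0.19 ± 0.29 and the pseudouridine synthase DKC1 0.59 ± 0.24, neither past the threshold. Of 13 assembly factors, 4 were higher and 1 was lower, with a median log2 fold change of -0.07. C12orf45 (NOPCHAP1), a chaperone factor of box C/D assembly, rose by 1.06 ± 0.19 and ZNHIT6 by 0.80 ± 0.16 (SE, edgeR adjusted p 0.00276 and 0.00542). NAF1, which acts on box H/ACA snoRNPs, and NOLC1, a nucleolar and Cajal body chaperone, had 0.72 ± 0.20 and 0.81 ± 0.25 and passed. NUFIP1, a box C/D assembly factor, had -0.81 ± 0.27 with an edgeR adjusted p of 0.0499. In PEO4 0 genes of either list passed (edgeR), with 2 core proteins and 3 assembly factors at an unadjusted p under 0.05. Of all 19064 genes tested in PEO4, 2.26% passed and 3175 were under that unadjusted p.

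Of 18 nonsense-mediated decay factors, 2 were higher (11.1%) and 2 lower in SW620, beside 13.5% and 17.0% of all genes tested. UPF3A, which resembles the decay factor UPF3B, had 0.90 ± 0.15, and RBM8A, a core protein of the exon junction complex, had 0.80 ± 0.25 (SE, edgeR adjusted p 0.00197 and 0.0395). XRN1, the cytoplasmic 5′ to 3′ exonuclease, fell by 0.72 ± 0.16 and SMG9, a subunit of the SMG1 kinase complex, by 0.61 ± 0.15 on the log2 scale (edgeR adjusted p 0.00807 and 0.0130). Of 7 regulators of TOP mRNAs, 1 was higher (14.3%), TIA1, with 0.47 ± 0.15 (edgeR adjusted p 0.0375). In PEO4 0 genes of these lists passed (edgeR), with 2 decay factors and 0 TOP regulators at an unadjusted p under 0.05. Among all 19064 genes tested in PEO4, 2.26% passed and 3175 were under that unadjusted p.

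Genes that were not chosen by name but hold a snoRNA on the same strand gave a wider frame. Over all genes tested, 13.5% were higher and 17.0% lower in SW620. Of 26 such ribosomal protein genes, 7 were higher in SW620 (26.9%) and 0 lower, with a median log2 fold change of 0.71. RPL37 rose by 1.64 ± 0.29, RPS12 by 1.38 ± 0.30, RPS3A by 1.02 ± 0.25 and RPL5 by 0.91 ± 0.23 (SE, edgeR adjusted p 0.00226, 0.00749, 0.0142 and 0.0143). Over all 76 ribosomal protein genes tested, 20 were higher (26.3%) and 0 lower with a median of 0.61, and 73 were above 0. Of 209 other protein-coding hosts tested, 45 were higher (21.5%) and 30 lower with a median of 0.22. The 4 with the smallest p among these were MYRIP (4.69 ± 0.22), BTBD11 (-6.46 ± 0.35), NCALD (-7.04 ± 0.42) and RABGGTB (3.16 ± 0.20). Of 25 other non-coding hosts tested, 5 were higher (20%) and 4 lower. The 4 with the smallest p were AC006305.1 (0 counts in every SW480 library and a mean of 1.87 CPM in SW620), AC092535.3 (1.27 CPM in SW480 and at most 1 count in a SW620 library), UBA6-AS1 (1.41 ± 0.22 on the log2 scale) and ULK4P2 (2 counts in each SW480 library and 0.755 CPM in SW620). AC006305.1, AC092535.3 and ULK4P2 passed the count filter only through the line where they were higher. The direction of a call was thus set by the filter for them. In PEO4 2 of 209 other protein-coding hosts tested were called, both lower, beside 2.26% of all genes tested in either direction. They were MYRIP (-0.94 ± 0.15) and NLGN4X (-1.29 ± 0.26), with edgeR adjusted p of 0.0162 and 0.0413. Of the 26 ribosomal protein hosts and 23 other non-coding hosts tested in PEO4, 0 were called.

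Calls were spread over members with and without a pyrimidine start. Of the 8 members with such a start, 5 were called higher in SW620, and of the 19 tested members with a window and no such start, 7 were. The other called members, SNHG6, SNHG15 and SNHG25, had no window here. RACK1, with a run of 9 pyrimidines, had a log2 fold change of 0.21, and SNHG18, with a run of 21, was lower.

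Overlap with other genes limits some of these values. By GENCODE 29, 20 members shared exon bases with a gene that is not a small RNA gene, 17 of them on the opposite strand, and the strand setting used in counting is not given in the sources used here. The shared part of the exons was 49.6% for EPB41L4A-AS1 (with EPB41L4A), 29.3% for SNHG6 (with MCMDC2), 30.6% for SNHG16 and 25.2% for SNHG7 (with FAM69B). SNHG28 shared 37.6% with SLAMF8 on the opposite strand and all of its exon bases with another annotated gene, so its counts are uncertain. SNHG21 shared 72.9% of its exon bases with a gene on its own strand.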

How the data were processed

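Whole-number counts per gene, deposited by the authors for 57500 Ensembl gene IDs and 12 libraries, were the starting point. Trimmomatic 0.36, STAR 2.5.2b, featureCounts, Subread 1.5.2, DESeq2 and GRCh38 are named in the submitters' processing notes, and the annotation release and strand setting are not given in the sources used here. The deposited comparison tables hold, per the file headers, log2 fold changes and p-values with adjusted p-values, and a normalised signal per library that was not used here.

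Each comparison was fitted on its 6 libraries with edgeR 4.0.16 (R 4.3.3): filterByExpr, TMM factors, the two-sided quasi-likelihood test and Benjamini-Hochberg adjustment over all genes tested, with a threshold of 0.05. The SE is the log2 fold change over the square root of F. Printed CPM uses TMM factors over the 12 libraries. GENCODE 29 (GRCh38), which holds 56898 of the gene IDs, gave positions, exon lengths, snoRNAs within members and overlaps. It may not be the release used for counting. Start windows came from RefSeq (GRCh38.p14).

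Members, lists and tests were chosen with earlier results of these data known. Named were called members, the 6 highest per length, untested members, the 3 largest fold changes per comparison, the protein-coding members, and up to 4 called genes per list. Alternatives were DESeq2 1.42.0, limma-voom (limma 3.58.1), RLE and library-total scaling, 2 other filters, leaving out small RNA and mitochondrial genes, 1 model over all 12 libraries, a replicate block, a GC correction (loess span 0.3) alone and with the block, and each library left out. In the SW lines the alternatives also held the fits without both libraries numbered 2 or both numbered 3. The labels name no molecular identifiers, so count limits cover counting error only.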

Additional observations from a re-analysis of the deposited data

How the results depend on the processing

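In SW620 over SW480, 14 to 22 members were higher in the settings with all 6 libraries, 22 of them with the replicate block and 21 with the GC correction and the block. With 1 library left out the number higher was 8 to 18 and the number lower 0 to 2, and with both libraries numbered 3 left out 9 were higher (this last fit and that without both libraries numbered 2 were chosen after seeing the data). With at least 10 counts in every library 0 were lower, since SNHG18 and SNHG28 are not tested there. The median log2 fold change of the members stayed between 0.50 and 0.81 with 1 library left out. In PEO4 0 members were higher in each setting run, and 2 were lower with the replicate block and with the GC correction and the block, SNHG4 and SNHG20. The PEO4 median ran from -0.050 to 0.11 with 1 library left out, the highest without the third control library. The correlation of same-numbered libraries was 0.0159, 0.670 and 0.567 in the SW lines and 0.291, -0.140 and 0.481 in PEO4. In the SW lines the second of SW480 with the third of SW620 had -0.630, and the third with the second -0.582. Not every library correlated best with its own number, so replicate numbers paired the samples at most in part. None of the 17 members called in SW620 turned sign in any of these settings, and RACK1, not called, did so without the third SW620 library. The cause of these shifts was not tested, and the calls over all genes in these fits are not given here. Low counts limit SNHG18, SNHG28, SNHG9, SNHG21 and most snoRNAs.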
